A study of Mus musculus with 28 samples.

Results

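Mesenchymal cells surround themselves with a matrix that holds more than collagen, and 10 genes for such products were followed here in every sample of a study of peripheral neural stem cells. They are *Dcn*, *Lum*, *Bgn*, *Fmod*, *Ogn*, *Postn*, *Fbn1*, *Fn1*, *Thy1* and *Sparc*. They were taken by symbol from the count table, 10 of its 28244 genes, and collagen genes were left aside. Bulk RNA-seq of polyA-selected RNA covered 28 samples in 11 groups. The study asked whether stem cells grown from tissues outside the central nervous system (pNSCs) resemble brain NSCs, the tissue they came from or neural crest stem cells (NCSCs).

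Brain-NSC, Lung-pNSC, Tail-pNSC, Lung and Tail have 2 samples each, and their labels name no reporter line. They are taken here as the Nes-GFP experiment because their names and numbers match the study's account of it. In that account the pNSCs grew from sorted cells of adult lung and postnatal tail of mice in which Nestin regulatory elements drive GFP. The Sox2-GFP knock-in line gave brain NSCs and, from postnatal lung, lung pNSCs, with 3 samples each. Mice carrying Wnt1-Cre and the mTmG reporter have neural crest cells and their progeny marked by GFP. Wnt1 tracing also labels midbrain cells, as the study states. This cross gave Wnt1Cre-mTmG brain NSCs, Wnt1Cre-mTmG Tail pNSCs and Wnt1Cre-mTmG DRG pNSCs, again with 3 samples each (DRG, dorsal root ganglia). The study describes pNSCs of this line as lacking the GFP that marks neural crest progeny, grown from unsorted postnatal tissue and also from sorted GFP-negative cells. Which of these the sequenced samples were is not stated. The 3 DRG NCSC samples are described in the study as coming from adult wild-type ganglia. Adult mice were 4 to 6 weeks old and postnatal mice 1 to 5 days old, and the labels give C57BL/6 for every sample. The study's methods instead describe its wild-type mice, with which several of the reporter lines were bred, as CD1 or of mixed CD1 and C3H background. The labels do not give the age of the brain NSC donors, nor whether the Lung and Tail cells had been cultured. pNSC lines started from single picked clusters, and whether replicates are separate lines or separate cultures of 1 line is not stated, so that p-values measure the spread between these samples only.

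Total counts ran from 9808246 to 22637031 per sample, and 3 counts, taken as the smallest amount detected, stood for 0.130 to 0.295 cpm (counts per 1e6 of library size, normalised with edgeR's TMM method over all 28 samples). Replicates correlated at r of 0.997 or more on log2 cpm, except that DRG NCSC replicate 3 reached only 0.993 and 0.994 with the other two of its group. The labels were checked against defining markers. *Olig2* and *Fabp7*, both neural stem cell markers, lay at 884 to 1382 and 1906 to 3224 cpm in all NSC and pNSC groups. *Sox10* and *Ngfr*, markers of neural crest, stood at 792 and 1208 cpm in DRG NCSCs. *Col2a1* of cartilage (42175 cpm) marked Tail, and the epithelial genes *Sftpc* (10685 cpm) and *Scgb1a1* (14471 cpm) marked Lung.

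Decorin, lumican, biglycan, fibromodulin and osteoglycin, the products of *Dcn*, *Lum*, *Bgn*, *Fmod* and *Ogn*, are small leucine-rich proteoglycans (SLRPs) that bind collagen fibrils and set their width and spacing. Fibrillin-1 (*Fbn1*) builds the microfibrils that carry elastin and store TGF-beta, and fibronectin (*Fn1*) is the adhesive scaffold that cells grip through integrins. Periostin (*Postn*) and SPARC (*Sparc*) are matricellular proteins that tune adhesion rather than bear load, and *Thy1* encodes the surface glycoprotein CD90, carried by fibroblasts and also by many neurons. In connective tissue these genes mark fibroblasts, whereas the matrix of the brain is built largely on hyaluronan and lecticans such as brevican and neurocan.

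In the genome (GRCm38, GENCODE M21) the SLRP genes sit among relatives. *Dcn* (chromosome 10, 97479609 to 97518143) ends 47.0 kb before *Lum* (97565128 to 97572703), which is followed after 34.2 kb by *Kera*. *Ogn* (chromosome 13, 49608046 to 49624501) closes a row of *Ecm2*, *Aspn* and *Omd* and lies 15.2 kb past *Omd*. *Fmod* (chromosome 1, 134037254 to 134048277) lies 116 kb past *Prelp*. The others are *Bgn* (chromosome X, 73483602 to 73495933), *Fn1* (chromosome 1, 71585520 to 71653200), *Postn* (chromosome 3, 54361109 to 54391037), *Fbn1* (chromosome 2, 125300594 to 125507993), *Thy1* (chromosome 9, 44043384 to 44048579) and *Sparc* (chromosome 11, 55394500 to 55423183). *Ogn*, *Fbn1* and *Fn1* each overlap 1 gene on the opposite strand (*Cenpp*, *Gm9913* and *Apol7d*). Overlap was taken over whole gene spans and not over exons, and the strand setting of the counting was not given in the sources used here. Whether reads of these pairs could be confused was therefore not checked.

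Promoter sequence from RefSeq (GRCm38.p6) matched 6 of the 10 genes, *Bgn*, *Fmod*, *Ogn*, *Postn*, *Fbn1* and *Sparc*. For 4 of them, the ones near or below the detection limit in most neural cultures, the RefSeq start lay within 50 bases of the GENCODE gene start. The 250 bases before each of these starts are shown 5′ to 3′ on the gene's strand because these genes differ so widely in level between the cell types. Capitals mark matches, on either strand, to TATAAA (the TATA box core), TGANTCA (the AP-1 element) or GGAATG (the TEAD core).
Postn, chr3:54360857-54361106, + strand: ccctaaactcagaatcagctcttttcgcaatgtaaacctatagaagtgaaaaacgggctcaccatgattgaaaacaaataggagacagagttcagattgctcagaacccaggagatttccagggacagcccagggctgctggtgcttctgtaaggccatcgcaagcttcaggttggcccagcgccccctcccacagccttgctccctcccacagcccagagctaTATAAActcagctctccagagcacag
Ogn, chr13:49607765-49608014, + strand: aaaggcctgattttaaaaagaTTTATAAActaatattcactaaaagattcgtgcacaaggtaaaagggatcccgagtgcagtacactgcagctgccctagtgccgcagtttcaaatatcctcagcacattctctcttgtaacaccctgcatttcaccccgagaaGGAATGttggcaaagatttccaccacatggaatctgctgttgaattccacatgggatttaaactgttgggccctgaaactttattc
Fmod, chr1:134037004-134037253, + strand: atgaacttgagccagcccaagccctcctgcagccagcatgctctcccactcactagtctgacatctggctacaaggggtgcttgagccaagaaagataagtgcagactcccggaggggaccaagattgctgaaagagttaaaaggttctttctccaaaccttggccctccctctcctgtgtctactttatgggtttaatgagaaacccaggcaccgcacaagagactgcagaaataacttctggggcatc
Bgn, chrX:73483351-73483600, + strand: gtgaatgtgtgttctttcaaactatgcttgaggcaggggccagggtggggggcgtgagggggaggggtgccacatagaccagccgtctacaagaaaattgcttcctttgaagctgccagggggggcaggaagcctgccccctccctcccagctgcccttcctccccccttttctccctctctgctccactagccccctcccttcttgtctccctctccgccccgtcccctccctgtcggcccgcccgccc
*Postn* holds a TATAAA whose first base lies 26 bases before its start. *Ogn* holds the same letters on both strands in 1 overlapping block beginning 229 bases before its start, and a GGAATG that begins 86 bases before it. *Fmod* and *Bgn* hold none of the 3 motifs. Over the 250 upstream bases of all 32851 RefSeq promoters, 12.4% hold TATAAA, 6.75% TGANTCA and 12.6% GGAATG. The CpG count was 4 for *Postn*, 4 for *Ogn*, 2 for *Fmod* and 7 for *Bgn*, against a median of 6 over all promoters.

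Levels of the 10 genes fell into 2 patterns. *Fbn1*, *Fn1* and *Sparc* were read in all 28 samples: their group means spanned 13.6 to 1309 cpm, 49.5 to 2112 cpm and 299 to 7915 cpm. The other 7 fell to 3 counts or fewer in at least 1 sample, with *Lum* listed at 0 counts in Brain-NSC, Lung-pNSC and Sox2-GFP lung pNSCs. All 10 genes had more than 3 counts in every sample of Tail, Lung and Wnt1Cre-mTmG Tail pNSCs. In Lung-pNSC, 6 of the 10 stayed at or under 3 counts in both samples, and in Tail-pNSC and Brain-NSC 5 did. Tail had the highest mean for 8 of the genes, Lung for *Ogn* and DRG NCSCs for *Postn*.

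**Figure D1:**
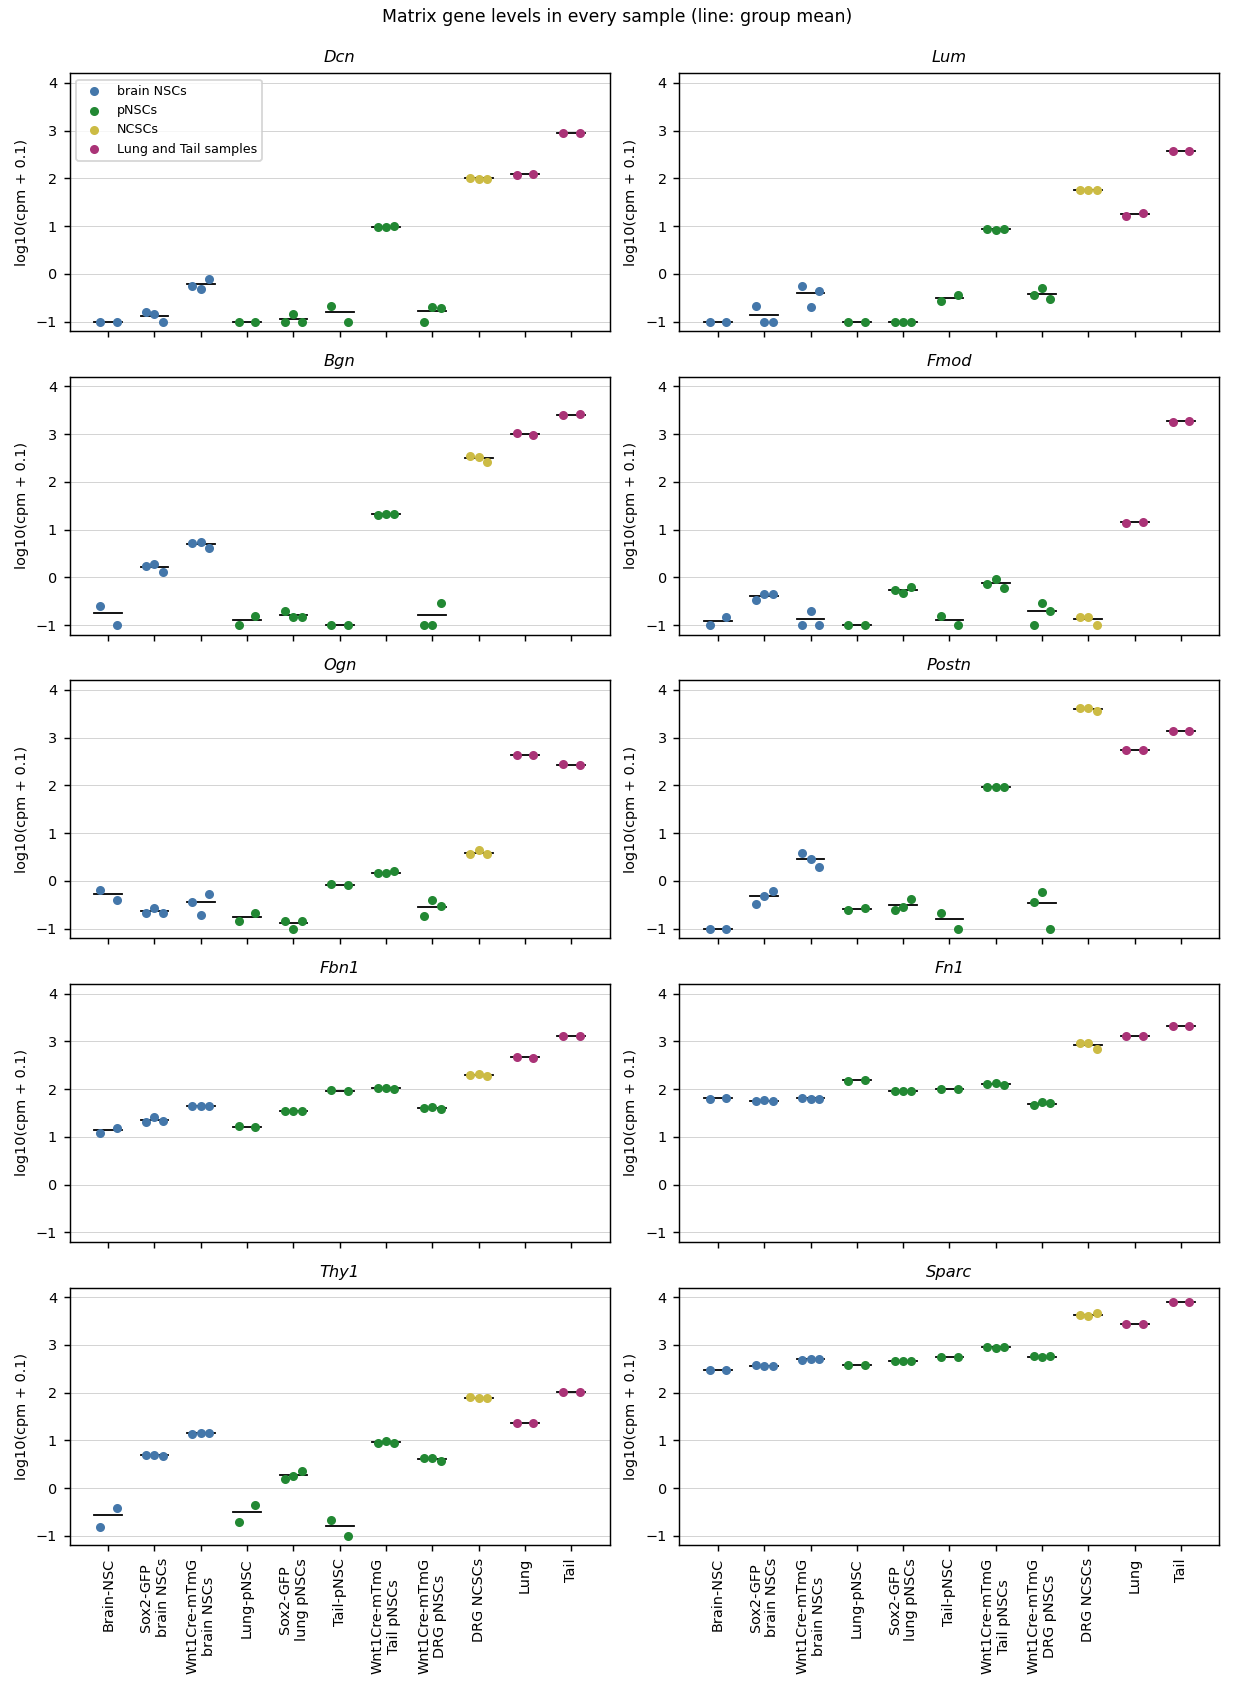
Level of each of the 10 genes in each of the 28 samples, as log10 of TMM-scaled cpm with 0.1 added; points are samples, short lines group means, and colours separate brain NSCs, pNSCs, NCSCs and the Lung and Tail samples. *Dcn*, *Lum*, *Bgn* and *Postn* climb from the floor of the plot in Brain-NSC to intermediate values in Wnt1Cre-mTmG Tail pNSCs and high values in DRG NCSCs, Lung and Tail, while *Fbn1*, *Fn1* and *Sparc* stay above 10 cpm throughout.

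Scaled by the length of each gene's merged exons, *Sparc* was the most abundant product of the 10 in each of the 11 groups. Merged exons can be longer than the transcript in use, so this compares different genes only roughly. It reached 2090 ± 15.8 cpm per kb (mean ± s.d., n = 2) in Tail, 1137 ± 101 (n = 3) in DRG NCSCs, 234 ± 2.42 (n = 3) in Wnt1Cre-mTmG Tail pNSCs and 79.0 ± 0.754 (n = 2) in Brain-NSC. In Tail the next was *Fmod* at 556 ± 4.23 cpm per kb, then *Bgn* at 416 ± 10.4. That order depends on the merged lengths of 3306 and 6099 bases, since unscaled *Bgn* was the higher, at 2536 cpm against 1838 cpm. In DRG NCSCs the next was *Postn* at 458 ± 35.4 cpm per kb, and *Fmod* was near nothing at 0.00943 ± 0.00817. Thus Tail and DRG NCSCs shared abundant *Sparc* and parted over which gene came second.

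The Tail and Lung samples set the scale for connective tissue. *Bgn* stood at 2491 and 2581 cpm in Tail and at 1061 and 971 cpm in Lung. *Dcn* stood at 885 and 888 cpm in Tail and at 118 and 123 cpm in Lung. *Fmod* stood at 1828 and 1848 cpm in Tail and at 13.9 and 14.6 cpm in Lung. Every Tail sample exceeded every Lung sample for these 3 proteoglycans. Compared with edgeR's quasi-likelihood test (Benjamini-Hochberg adjusted p under 0.05 and a log2 change of at least 1 in size, the rule for every call below), 8 of the 10 genes were higher in Tail than in Lung, where 20.5% of all genes tested were. *Fmod* differed most, by 7.07 ± 0.0493 (log2 fold change ± SE), followed by *Lum* at 4.49 ± 0.0563, *Dcn* at 2.94 ± 0.0365 and *Thy1* at 2.23 ± 0.0754. Here and below this SE comes from the F of the test, and for large changes on few counts it is smaller than the counting error. *Sparc* (1.61 ± 0.0256), *Fbn1* (1.55 ± 0.0327), *Bgn* (1.38 ± 0.0299) and *Postn* (1.38 ± 0.0323) made up the 8. *Ogn* went the other way, at 433 cpm in Lung against 271 cpm in Tail, a log2 difference of -0.62 ± 0.0333 that missed the limit on size. *Fn1* was 0.77 ± 0.0294 higher in Tail and missed it too. The median over the 10 genes was 1.58, against 0.00665 over all genes tested. Cell type markers differed between the same samples. All 7 cartilage and bone markers were higher in Tail, where they summed to 45939 to 47149 cpm against 14.3 to 15.7 cpm in Lung. Of 9 fibroblast markers 6 were higher and 3 lower in Tail, with sums of 71365 to 73269 cpm against 4487 to 4601 cpm. Neural crest and Schwann markers were higher for 6 of 7, and all 6 endothelial and all 6 leukocyte markers were lower. Their part in the differences of the 10 genes was not tested. The labels give no age for Tail or Lung, and in the study's account the matching pNSCs came from postnatal tail and adult lung. Tissue and donor age therefore cannot be told apart here. In bulk RNA, fewer cells of a type and less RNA per cell cannot be told apart, here or in any comparison that follows.

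All 10 genes were lower in pNSCs than in the tissue of origin, in each of 3 comparisons. *Dcn*, *Lum*, *Bgn*, *Fmod*, *Postn* and *Thy1* stayed under the filter's minimum count of 10 in every Tail-pNSC, Lung-pNSC and Brain-NSC sample. So did *Dcn*, *Lum*, *Ogn* and *Postn* in both Sox2-GFP groups. These genes were tested only because Tail or Lung samples exceeded it, so their calls of lower are not independent of the filter. In Tail-pNSC against Tail, 32.6% of all genes tested were called lower. The SLRPs all but vanished: *Bgn*, at 0 counts in both Tail-pNSC samples, was at least 15685-fold lower, and *Dcn*, with 2 counts in all, 16506-fold lower (95% counting interval 4569 to 136300). *Postn*, also with 2 counts in all, was 25530-fold lower (interval 7067 to 210820). *Fmod*, with 1 count in all, was 68429-fold lower (interval 12281 to 2702800), and *Thy1* 1928-fold lower (interval 533 to 15927) on 2 counts. Intervals of this kind cover counting error only. *Lum* and *Ogn* kept a few counts, at log2 fold changes of -10.82 and -8.62. No SE is given for these 2 values, because at such low counts the fitted SE is far narrower than a counting interval. *Fbn1*, *Fn1* and *Sparc* fell far less, with log2 fold changes of -3.91 ± 0.0380, -4.50 ± 0.0359 and -3.90 ± 0.0283, which left 7.08%, 4.70% and 7.08% of the Tail level. The median over the 10 genes was -10.82, against -0.16 over all genes tested.

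In Lung-pNSC against Lung, 34.9% of all genes tested were called lower. *Dcn*, *Lum* and *Fmod* had 0 counts in both Lung-pNSC samples and were at least 778-fold, 114-fold and 92.2-fold lower. *Ogn*, the proteoglycan that Lung carried at 430.0 and 437 cpm, was 5630-fold lower on 3 counts (interval 1926 to 27304). *Bgn*, with 1 count in all, was 39747-fold lower (interval 7133 to 1570000). *Postn*, with 3 and 3 counts, and *Thy1*, with 2 and 6, had log2 fold changes of -11.77 and -6.79, again without an SE. *Fbn1*, *Fn1* and *Sparc* had log2 fold changes of -4.89 ± 0.0486, -3.13 ± 0.0336 and -2.90 ± 0.0275. With genes at 0 set to their bounds the median was -6.81 and as fitted -11.19, against -0.15 over all genes tested. Sox2-GFP lung pNSCs, compared with the same 2 Lung samples, were also lower for all 10 genes, where 34.9% of all genes tested were. There *Fmod* kept 3.12% of the Lung level, *Thy1* 7.75% and *Sparc* 16.7%, while *Bgn*, *Dcn*, *Ogn* and *Postn* kept 0.00612% to 0.0388% and *Lum* was at 0 counts, at least 127-fold lower. *Fbn1* (7.46%) and *Fn1* (7.08%) kept shares close to that of *Thy1*. With *Lum* at its bound the median log2 fold change was -5.99 and as fitted -8.15, against -0.12 over all genes tested. The labels name neither a reporter line nor an age for the Lung and Tail samples, nor whether they were cultured. Mouse line, age, culture and cell type therefore cannot be told apart in any of these comparisons with Tail or Lung.

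**Figure D2:**
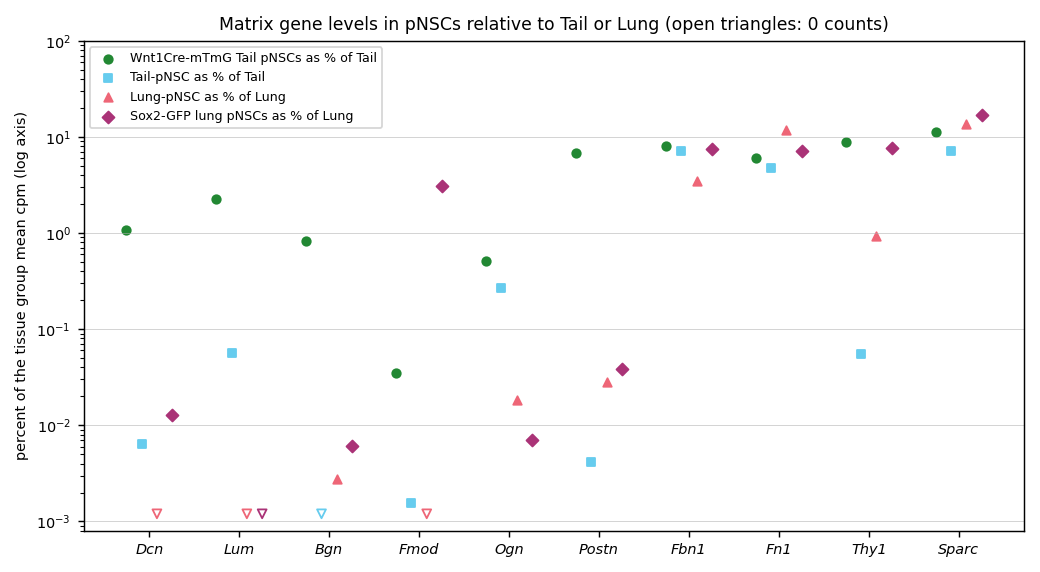
Mean level of each gene in 4 pNSC groups as a percent of its mean in Tail or Lung, on a log axis; filled symbols are group means and open triangles at the bottom mark genes with 0 counts in the pNSC group. *Fbn1*, *Fn1* and *Sparc* sit between 3.45% and 16.7% in every group, whereas *Dcn*, *Lum*, *Bgn* and *Postn* sit at 0.827% to 6.86% in Wnt1Cre-mTmG Tail pNSCs and below 0.1% in the other groups.

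The tissue marker lists moved with these falls. Of 9 fibroblast markers, 8 were lower in Tail-pNSC than in Tail and 7 in Lung-pNSC than in Lung, both led by the collagen gene *Col1a2*, while *Twist1* was higher in Lung-pNSC. The 6 endothelial and 6 leukocyte markers were lower in both pNSC groups. Their summed level in Lung was 5081 to 5177 cpm and 4386 to 4402 cpm, and in Lung-pNSC 3.41 to 4.19 cpm and 2.66 to 3.29 cpm. Of 7 epithelial markers, 6 were lower in Tail-pNSC and 7 in Lung-pNSC. Of 7 cartilage and bone markers, 6 were lower in Tail-pNSC, at a sum of 160.4 to 161.1 cpm, whereas 3 were lower and 2 higher in Lung-pNSC. All 7 mural and smooth muscle markers and all 7 neural crest and Schwann markers were lower in Tail-pNSC. In Lung-pNSC 6 mural markers were lower and 1 higher, and 4 crest markers were lower and 2 higher. What part each cell type had in the falls of the 10 genes was not tested. Of related matrix genes, 9 of 9 further SLRP genes were lower in Tail-pNSC than in Tail, 11 of 15 elastic fibre and microfibril genes and 9 of 12 matricellular genes. Genes of brain matrix were higher in Lung-pNSC than in Lung for 8 of 9, led by *Ncan* (neurocan) at 12.15 ± 0.0863. In Tail-pNSC against Tail they split, with 5 of 9 higher and 4 lower, the latter led by *Hapln1*. Their summed level was 3890 to 3902 cpm in Tail-pNSC and 4560 to 4572 cpm in Tail. The brain matrix list shares *Acan* with the cartilage list, and *Acan* was its most raised gene in Tail against Lung. The Tail sum is therefore no measure of brain matrix alone.

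Against brain NSCs the 10 genes differed far less, and not alike in each pNSC line. In Tail-pNSC 2 genes were called, both higher, where 4.31% of all genes tested were called higher and 6.59% lower. *Fbn1* stood at 95.4 and 89.8 cpm in Tail-pNSC and at 11.9 and 15.2 cpm in Brain-NSC. The groups did not overlap, and the log2 fold change was 2.76 ± 0.0570. *Lum* was called on 3 and 5 counts in Tail-pNSC against 0 and 0, at least 1.42-fold higher, a call not made in a fit of only the groups compared. *Sparc*, at 560.2 and 560.3 cpm against 297 and 301 cpm, was 0.90 ± 0.0270 higher, and *Fn1*, at 100.4 and 98.2 cpm against 62.4 and 66.1 cpm, 0.63 ± 0.0402 higher. Both passed the adjusted p and missed the limit on size. *Ogn*, at 13 and 14 counts against 11 and 6, had a log2 fold change of 0.77 with a 95% interval of -0.042 to 1.58. *Thy1*, on 2 and 0 counts against 1 and 6, had a ratio of 0.309 (counting interval 0.0313 to 1.62). *Dcn*, *Bgn*, *Fmod* and *Postn* stayed at or under 3 counts in all 4 samples. The median over the 6 genes with a fold was 0.70 with *Lum* at its bound and 0.84 as fitted, against 0 over all genes tested. Fibroblast markers were called for 4 of 9 in the same comparison, all higher, and summed to 39.8 to 40.2 cpm in Tail-pNSC and 14.2 to 18.7 cpm in Brain-NSC. These markers did not go together. Tail-pNSC held 22.2% of the Tail level of *Prrx1*, 4.33% of *Pdgfra* and 1.69% of *Twist1*. It held 0.00559% of *Col1a1*, 0.00222% of *Col3a1*, 9.31e-05% of *Col1a2* and 0 of *Pdgfrb* and *Twist2*. Elastic fibre and microfibril genes were called for 6 of 15 and matricellular genes for 5 of 12, all higher, the latter led by *Ccn2* at 4.27 ± 0.423. Brain matrix genes were called for 5 of 9, all lower, led by *Tnr* (tenascin-R) at -1.98 ± 0.0878. What part the cells or genes behind the fibroblast markers had was not tested.

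In Lung-pNSC against Brain-NSC the call on *Fn1* rested on deep counts: 148 and 155 cpm against 62.4 and 66.1 cpm, a log2 fold change of 1.23 ± 0.0384. *Postn* was called higher as well, but on 3 and 3 counts against 0 and 0, and no fold is given. The *Postn* call was lost without either Brain-NSC replicate and was not made in a fit of only the groups compared. *Ogn* was called lower, on 1 and 2 counts against 11 and 6, a ratio of 0.182 (counting interval 0.0342 to 0.630), and this call was lost without replicate 1 of either group and not made in a fit of only the groups compared. These 2 higher calls and 1 lower call stood where 4.56% and 4.15% of all genes tested were called. *Fbn1*, at 16.5 and 15.6 cpm, lay just above both Brain-NSC samples and differed by 0.23 (interval 0.076 to 0.38). *Sparc* at 372 and 371 cpm was 0.30 ± 0.0273 higher. *Dcn* and *Lum* had 0 counts in all 4 samples, which allows up to 3 counts, or 0.142 to 0.167 cpm, per sample. *Bgn* and *Fmod* stayed at or under 3 counts too, and *Thy1*, on 2 and 6 counts against 1 and 6, had a log2 fold change of 0.22 (interval -1.29 to 1.73). Over the 5 genes with a fold the median was 0.23, against 0 over all genes tested. Fibroblast markers were called for 3 of 9, all higher, led by *Twist1* at 2.86 ± 0.285, and summed to 27.7 to 30.4 cpm in Lung-pNSC. Here too they went apart. Lung-pNSC held 1830% of the Lung level of *Twist1* and 91.3% of *Prrx1*. It held at most 2.97% of any other marker and 0 of *Col1a2* and *Tcf21*. Elastic fibre and microfibril genes split into 5 higher and 1 lower of 15, and matricellular genes into 2 higher and 2 lower of 12. The part of the fibroblast markers was not tested here either.

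In Sox2-GFP lung pNSCs 3 genes were called against Sox2-GFP brain NSCs, all lower, where 9.99% of all genes tested were called lower. *Bgn* read 29, 42 and 21 counts in the brain NSCs and 2, 1 and 1 in the lung pNSCs, a log2 fold change of -4.55 ± 0.407. *Thy1* stood at 4.73, 4.76 and 4.70 cpm in the brain NSCs and at 1.48, 1.72 and 2.13 cpm in the lung pNSCs, -1.40 ± 0.164. Neither gene overlapped between the groups. *Ogn* was called at an adjusted p of 0.0495 on 2 counts against 8, a ratio of 0.223 with a counting interval of 0.0231 to 1.12 that includes 1, and the call was lost whichever of the 6 samples was left out. *Fbn1*, *Fn1* and *Sparc* were higher by 0.60 ± 0.0504, 0.67 ± 0.0324 and 0.30 ± 0.0189, under the limit on size. *Fmod* (9, 8 and 12 counts against 4, 8 and 6) had a log2 fold change of 0.51 with an interval of -0.37 to 1.40, and *Postn* (3, 4 and 7 counts against 4, 9 and 9) one of -0.80 with an interval of -1.70 to 0.10. *Dcn* and *Lum* stayed at or under 2 counts in all 6 samples. For the 8 genes with a fold the median was -0.25, against 0 over all genes tested. Of 9 fibroblast markers 2 were higher and 2 lower, with sums of 82.5 to 89.9 cpm in the lung pNSCs and 143 to 148 cpm in the brain NSCs. Elastic fibre genes split into 3 higher and 6 lower of 15, and matricellular genes into 2 higher and 4 lower of 12. The part of these cell type markers was not tested.

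**Figure D3:**
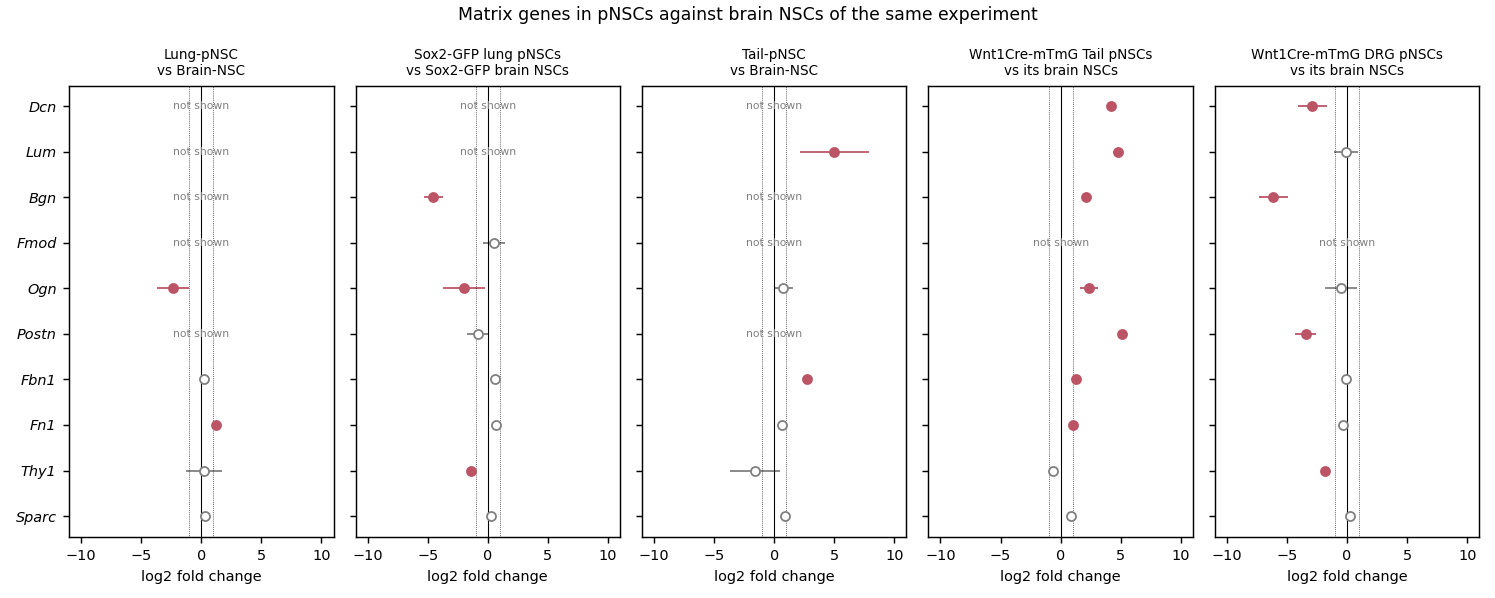
Log2 fold change of each gene in 5 pNSC groups against brain NSCs of the same experiment, with bars of 95% intervals; red points passed the test and the fold limit, open points did not, dotted lines mark log2 changes of 1 and -1, and genes not tested or at or under 3 counts in every sample of both groups are not shown. Wnt1Cre-mTmG Tail pNSCs show 7 red points to the right of 0, whereas Wnt1Cre-mTmG DRG pNSCs show 4 to the left. Bars are too narrow for large changes on few counts.

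Wnt1Cre-mTmG Tail pNSCs differed from their brain NSCs more than any other pNSC group here by number of calls: 7 of the 9 genes tested were called, all higher, where 9.16% of all genes tested were higher. Of these, *Dcn*, *Lum* and *Ogn* had under 10 counts in every brain NSC sample. They were tested only because the Tail pNSCs and DRG NCSCs passed the filter. *Postn* stood at 94.6, 94.0 and 93.5 cpm in the 3 Tail pNSC samples and at 3.75, 2.80 and 1.86 cpm in the brain NSCs. The Tail pNSC samples lay far above all brain NSC samples, and the log2 fold change of 5.08 ± 0.132 was the largest of the 9 genes tested.

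Among the SLRPs, *Lum* stood at 8.48, 8.28 and 8.65 cpm in Wnt1Cre-mTmG Tail pNSCs and at 0.447, 0.0967 and 0.338 cpm in the brain NSCs, a log2 fold change of 4.79 ± 0.211. *Dcn* stood at 9.66, 9.38 and 9.86 cpm against 0.447, 0.387 and 0.676 cpm, 4.22 ± 0.176. *Bgn* stood at 20.02, 21.2 and 21.6 cpm against 5.27, 5.32 and 4.06 cpm, 2.11 ± 0.162. No sample of 1 group reached the range of the other for these genes. *Ogn* rose by 2.34 ± 0.384 on 31, 29 and 30 counts against 3, 1 and 5. *Fmod*, which regulates fibril growth, was too low to be tested: 14, 18 and 10 counts against 0, 1 and 0, a ratio of 21.7 (counting interval 3.69 to 878).

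*Fbn1* was 1.27 ± 0.0480 higher in these Tail pNSCs, at 106, 107 and 102 cpm against 43.6, 43.8 and 43.3 cpm. *Fn1* stood at 129, 131 and 121 cpm against 65.5, 62.7 and 62.8 cpm, and its log2 fold change of 1.00 ± 0.0902 lay on the limit: the interval ran from 0.83 to 1.18, and the value was 0.95 with library totals alone and 0.98 with upper-quartile scaling. *Sparc*, at 886, 877 and 895 cpm against 482, 499 and 500.2 cpm, was 0.85 ± 0.0505 higher and missed the limit. *Thy1* went down instead, from 13.8, 14.1 and 14.4 cpm in the brain NSCs to 8.70, 9.61 and 8.90 cpm, -0.63 ± 0.0751, also short of the limit. The median over the 9 genes tested was 2.11, against 0.00386 over all genes tested.

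Set against Tail itself, the same Tail pNSCs held 11.2% of the *Sparc* level, 8.76% of *Thy1*, 8.03% of *Fbn1*, 6.86% of *Postn* and 6.02% of *Fn1*. The SLRPs held less, 2.24% for *Lum*, 1.09% for *Dcn*, 0.827% for *Bgn*, 0.517% for *Ogn* and 0.0352% for *Fmod*. The shares were thus not equal across the 10 genes, and the experiments were separate, so these are values side by side without a test.

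Fibroblast markers were higher in the same samples. Of the 7 tested, 5 were called, all higher, led by *Col3a1* (type III collagen) at 5.52 ± 0.103. The summed level of the 9 fibroblast markers was 492 to 498 cpm in Wnt1Cre-mTmG Tail pNSCs, 54.5 to 57.0 cpm in their brain NSCs and 71365 to 73269 cpm in Tail. *Tcf21* was at 0 in both neural groups and in Tail, and *Twist2* was at 0 in the brain NSCs. *Krt5* and *Krt14*, abundant in Tail, were at 0 counts in all 3 Tail pNSC samples, as were *Scgb1a1* and *Cldn5*. Endothelial markers summed to 2.84 to 3.27 cpm and leukocyte markers to 0.874 to 1.33 cpm there, against 3.09 to 3.39 cpm and 1.88 to 3.04 cpm in the brain NSCs. In the mural and smooth muscle list 2 of 5 tested were higher, led by *Myh11* at 5.87 ± 0.288, and 1 was lower. What part the fibroblast or mural signal had in the rise of the 10 genes was not tested.

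Related matrix genes from the lists rose in part. Of the other SLRP genes, 3 of 7 tested were called, all higher. The largest fitted change was that of *Kera* (keratocan), a neighbour of *Lum*. With 0 counts in all brain NSC samples, only a bound of at least 3.85-fold higher in the Tail pNSCs holds, so its rank is not settled. Elastic fibre and microfibril genes were higher in 6 of 14 tested, led by *Fbln5* (fibulin-5) at 6.46 ± 0.194. Matricellular genes were higher in 4 of 12, led by *Tgfbi* at 4.04 ± 0.221, and lower in 1, *Spp1* (osteopontin) at -2.43 ± 0.0658. Of the fibronectin receptor integrins 1 of 6, *Itga5*, was higher at 1.30 ± 0.0621 and 2 were lower, led by *Itga8* at -1.85 ± 0.210. Brain matrix genes split, with 2 of 8 higher, led by *Hapln1* at 3.83 ± 0.516, and 2 lower, led by *Tnr* (tenascin-R) at -1.43 ± 0.0661.

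Wnt1Cre-mTmG DRG pNSCs moved the other way on several of these genes: 4 were called against the brain NSCs, all lower, where 6.41% of all genes tested were lower. *Postn* read 3, 5 and 0 counts in the DRG pNSCs and 42, 29 and 22 in the brain NSCs, -3.45 ± 0.464. *Bgn* read 0, 0 and 2 counts against 59, 55 and 48, a ratio of 0.0127 (counting interval 0.00153 to 0.0467). *Dcn* read 0, 1 and 1 counts against 5, 4 and 8, a ratio of 0.121 (interval 0.0136 to 0.511). No sample overlapped for the 3 genes. *Thy1* stood at 4.24, 4.24 and 3.65 cpm, below the brain NSCs by 1.80 ± 0.100 on the log2 scale. For all 4 genes called, the Wnt1Cre-mTmG brain NSCs had the highest mean of the 3 brain NSC groups. Mean *Postn* in the DRG pNSCs was 0.249 cpm, between Brain-NSC at 0 and Sox2-GFP brain NSCs at 0.379 cpm. Mean *Thy1* was 4.04 cpm, between 0.171 and 4.73 cpm in the same 2 groups. *Fbn1* differed by -0.12 (interval -0.23 to -0.0094), *Fn1* by -0.37 ± 0.102 and *Sparc* by 0.21 ± 0.0508, all inside the limit, and *Lum* by -0.11 with the wide interval of -1.11 to 0.90. *Ogn* (1, 3 and 2 counts against 3, 1 and 5) differed by -0.52 (interval -1.84 to 0.80), and *Fmod* had at most 2 counts in any of the 6 samples. Across the 9 genes tested the median was -0.52, against 0.0130 over all genes tested. Of the 7 fibroblast markers tested, 5 were lower here and 1 higher. Libraries of these DRG pNSCs and brain NSCs were the shallowest of the series, 9808246 to 11431445 counts.

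DRG NCSCs carried most of the genes at high levels. All 9 genes tested were higher than in Wnt1Cre-mTmG brain NSCs, where 22.1% of all genes tested were. For *Dcn*, *Lum* and *Ogn*, with under 10 counts in every brain NSC sample, the filter was passed only through the NCSCs and Tail pNSCs. Their calls are therefore not independent of the filter. *Fmod*, hardly detected in the NCSCs, was not tested. *Postn* stood at 4158, 4171 and 3631 cpm, above Tail and Lung, with a log2 fold change of 10.49 ± 0.120. *Dcn*, at 103, 98.6 and 96.6 cpm, rose by 7.60 ± 0.118, and *Lum*, at 57.9, 57.9 and 56.5 cpm, by 7.56 ± 0.147. *Bgn*, at 342, 338 and 262 cpm, rose by 6.02 ± 0.127. Replicate 3 was lowest for each of these, as it was for *Fn1* (902, 934 and 691 cpm), and highest for *Sparc* (4165, 4018 and 4742 cpm). Without it 9 of 9 genes were still called.

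*Fn1* rose by 3.74 ± 0.0911, *Sparc* by 3.14 ± 0.0539, *Thy1* by 2.48 ± 0.0604 and *Fbn1* by 2.18 ± 0.0472. *Ogn* rose by 3.81 ± 0.316 but stayed at 78, 93 and 60 counts, or 3.497 to 4.396 cpm, which is 1.42% of the Tail level. *Fmod* had 1, 1 and 0 counts, or 0.00170% of the Tail level. The median over the 9 genes was 3.81, against 0.0149 over all genes tested. The 5 fibroblast markers called were all higher, led by *Col3a1* at 8.25 ± 0.0979, with *Tcf21* at 0, and all 4 leukocyte markers tested were higher, led by *Lyz2* at 11.45 ± 0.145. Summed leukocyte markers ran from 587 to 620 cpm in NCSCs and from 1.88 to 3.04 cpm in the brain NSCs, and summed fibroblast markers from 2903 to 3522 cpm. Their part in the levels of the 10 genes was not tested. Among related genes, *Tgfbi* (9.94 ± 0.128), *Fbln5* (9.75 ± 0.133) and the integrin gene *Itga8* (6.43 ± 0.107) led their lists, and 5 of 6 fibronectin receptor integrins were higher.

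Both Wnt1Cre-mTmG pNSC groups lay below DRG NCSCs. For the Tail pNSCs 8 of 9 genes tested were lower, where 22.6% of all genes tested were, and for the DRG pNSCs 9 of 9, where 23.3% were. *Dcn*, *Lum* and *Ogn*, under 10 counts in every DRG pNSC sample, were tested only through groups with higher levels. *Postn* differed most in both, by -5.41 ± 0.0810 and by -13.94. The second value rests on 8 counts in all in the DRG pNSCs and is given without an SE. *Fbn1* differed least, by -0.91 ± 0.0411 in Tail pNSCs, just short of the limit, and by -2.30 ± 0.0480 in DRG pNSCs. *Fmod* alone was higher in Tail pNSCs than in NCSCs by its counts, 42 against 2 in all, a ratio of 19.5 (counting interval 5.07 to 166). These comparisons share the NCSC samples with each other and with the one against brain NSCs. The study describes the NCSCs as adult and wild-type. Mouse line, donor age and cell type therefore cannot be told apart here or in the comparison against brain NSCs.

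**Figure D4:**
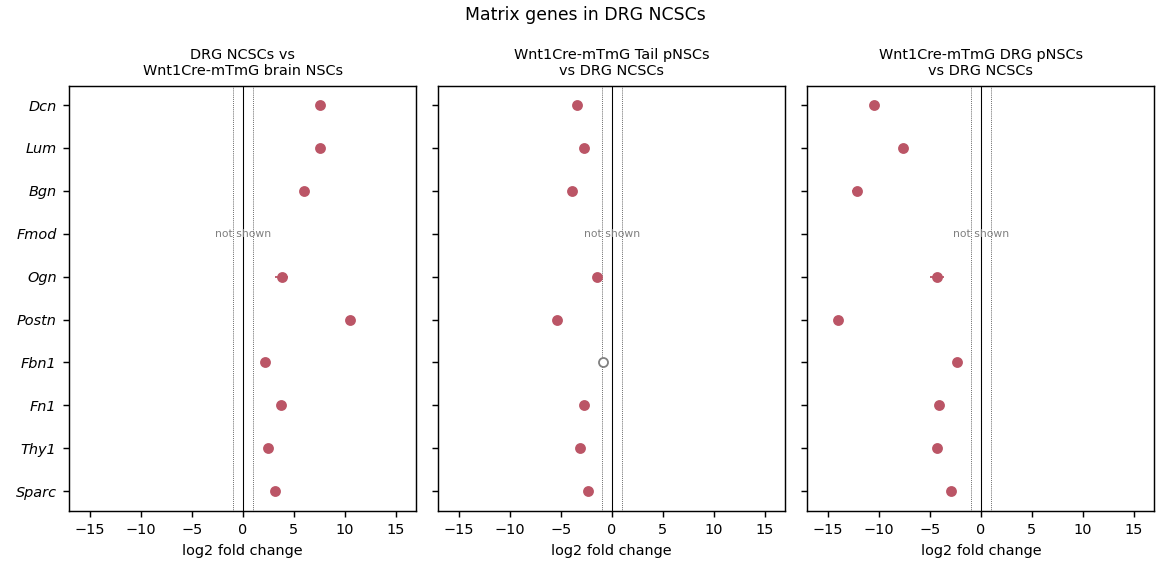
Log2 fold change of each gene for DRG NCSCs against Wnt1Cre-mTmG brain NSCs, and for the 2 Wnt1Cre-mTmG pNSC groups against DRG NCSCs, with bars of 95% intervals and colours as in the plot of pNSCs against brain NSCs. All 9 tested genes lie right of 0 in the first panel, from 2.18 for *Fbn1* to 10.49 for *Postn*, and left of 0 in the other panels. Bars are too narrow for large changes on few counts.

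The pNSC effect was then compared between experiments, in 1 fit of all 28 samples. For tail, the difference of (Wnt1Cre-mTmG Tail pNSCs minus brain NSCs) and (Tail-pNSC minus Brain-NSC) was called for 2 genes, 1 higher and 1 lower, where 8.96% and 7.05% of all genes tested were. *Fbn1* rose less in the Wnt1Cre-mTmG line, at a difference of -1.495 ± 0.101 on the log2 scale. Its level was 102 to 107 cpm and 89.8 to 95.4 cpm in the tail lines, and 43.3 to 43.8 cpm and 11.9 to 15.2 cpm in the brain NSCs. *Ogn* had a difference of 1.57 ± 0.565 on few counts, with an adjusted p of 0.0326, and missed the threshold without Tail-pNSC replicate 2, Brain-NSC replicate 1 or Wnt1Cre-mTmG brain NSC replicate 1 or 2. *Fn1* (0.37 ± 0.110) and *Sparc* (-0.06 ± 0.0600) were inside the limit, *Lum* differed by -0.19 ± 0.233 and *Thy1* by 0.94 ± 0.915. No difference is given for *Dcn*, *Bgn*, *Fmod* and *Postn*, which were at or under 3 counts in all samples of Tail-pNSC and Brain-NSC.

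For lung, 1 gene was called, lower in the Sox2-GFP experiment, where 8.24% of all genes tested were. It was *Postn*, which had 3 and 3 counts in Lung-pNSC and 0 and 0 in Brain-NSC, too few for a fold. The call was lost without Brain-NSC replicate 1 and not made in a fit of only the groups compared. Brain-NSC and Lung-pNSC lay at or under 3 counts for *Dcn*, *Lum*, *Bgn* and *Fmod* as well. *Fn1* rose less in the Sox2-GFP lung pNSCs than in Lung-pNSC, by -0.57 ± 0.106, and *Fbn1* more, by 0.36 ± 0.120, both inside the limit. *Sparc* differed by -0.0089 ± 0.0603, *Ogn* by 0.41 ± 1.81 and *Thy1* by -1.63 ± 0.725, which missed the adjusted p at 0.0681.

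Brain NSCs of the 3 experiments also had unlike levels. *Thy1* ran at 0.0507 and 0.292 cpm in Brain-NSC, at 4.70 to 4.76 cpm in Sox2-GFP and at 13.8 to 14.4 cpm in Wnt1Cre-mTmG brain NSCs, and *Bgn* at 0.152 and 0, 1.20 to 1.82 and 4.06 to 5.32 cpm. The ranges did not overlap for either gene. The cultures came from different mouse lines, and the part of line, age and culture in this cannot be told apart.

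Ordered by group mean, neighbouring groups overlapped mostly at the bottom. For *Fbn1* no neighbours among the 11 groups overlapped in their samples, and for *Fn1* only Brain-NSC and Wnt1Cre-mTmG brain NSCs did. For *Sparc*, Wnt1Cre-mTmG DRG pNSCs overlapped Tail-pNSC, and Lung-pNSC overlapped Sox2-GFP brain NSCs. For *Dcn*, the 6 lowest groups overlapped in a chain, all at or under 2 counts per sample. The share of all genes whose groups did not overlap was not counted, here or for the single genes above. Replicates lay close together in most groups, so such separation is not taken as particular to these genes. Across the 11 group means of log2(cpm + 1), *Dcn* and *Bgn* ran closest among the 10 genes (Pearson r of 0.984), and *Fmod* and *Postn* least (0.585). These 11 points share 1 normalisation and the same libraries, so r is a description.

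Among the 13294 genes with a mean of at least 10 cpm in any group, those most like the average z-score of the 10 genes over the 11 groups were *Col1a2* (r of 0.992), *Rxra* (0.990), *Ripk3* (0.990), *Col1a1* (0.990) and *Castor1* (0.989). For single genes, *Dcn* ran closest to *Col1a2* (0.996), *Lum* to *Meg3* (0.995), *Bgn* to *Scube1* (0.989), *Fmod* to *Nccrp1* (0.997) and *Ogn* to *Bmp4* (0.997). *Postn* ran closest to *Tgfbi* (0.988), *Fn1* to *Mvb12a* (0.993), *Thy1* to *Cstb* (0.974), and both *Fbn1* (0.965) and *Sparc* (0.987) to *Rxra*. Likeness over 11 group means says only that levels ran together.

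Summed over the 10 genes, the counts took 1.87% of the TMM-scaled library in both Tail samples, 0.655% to 0.672% in Lung and 0.974% to 1.00% in DRG NCSCs. Wnt1Cre-mTmG Tail pNSCs followed with 0.126% to 0.127%, above all other neural groups, of which Tail-pNSC was next with 0.0749% to 0.0757% and Brain-NSC lowest with 0.0372% to 0.0383%. *Sparc* alone made up most of the sum in each neural group.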

How the data were processed

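PolyA-selected RNA of 28 samples was sequenced single-end on a NextSeq500. The authors aligned reads to GRCm38 with HISAT2, annotated them with Cufflinks and counted them per gene with HTSeq, and deposited raw counts without normalization. Samples were grouped by their labels. Counts of each experiment (16948, 14448 and 16234 genes with edgeR's filterByExpr at a minimum count of 10 and total of 15) were scaled by TMM and fitted over all groups with edgeR 4.0.16 (R 4.3.3, two-sided quasi-likelihood test, Benjamini-Hochberg over all genes tested). The SE is the log2 fold change divided by the square root of F, and intervals are 1.96 SE. For large changes on few counts this SE is smaller than the counting error. For *Dcn* in Tail-pNSC against Tail it was 0.102 on the log2 scale, whereas the counting interval ran from 4569-fold to 136300-fold. Where the adjusted p underflows, the SE stands for it. Counting intervals are exact (Clopper-Pearson, 95%). The difference of pNSC effects used 1 fit of 28 samples (17393 genes). Fold bounds took 3 counts per library. The 10 genes and all lists were chosen with earlier results of these data known. The text names all 10 genes, the called gene of largest change per list and direction, and the nearest genes by correlation. DESeq2 1.42.0 and other settings were alternatives. On simulated data 99 or 100 of 100 genes changed 2-fold in each of 4 comparisons tested (13234 to 14016 genes) were recovered, and 100 of 100 changed 4-fold, with 7 to 11 false calls. Changed genes were drawn only from genes well above the detection limit. The spread was set in advance, and hits were scored by adjusted p without the fold limit. These rates thus do not cover calls on few counts.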

Additional observations from a re-analysis of the deposited data

Results flagged for a closer look

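The test of the difference between experiments called *Fbn1* and *Ogn* for tail and *Postn* for lung. For tail 1 gene was called higher and 1 lower, where 8.96% and 7.05% of all genes tested were, and for lung 1 was called lower, where 8.24% were. With 10 genes, each of these counts lies near the share of all genes. For *Fbn1* the log2 rise of tail pNSCs over brain NSCs was smaller in the Wnt1Cre-mTmG than in the experiment of Tail-pNSC and Brain-NSC, with a difference of -1.495 and an adjusted p of 2.3e-15 (edgeR). *Fbn1* was higher in tail pNSCs in all samples of both experiments. For *Ogn* the same difference was 1.57 with an adjusted p of 0.0326, on 29 to 31 counts per Wnt1Cre-mTmG Tail pNSC sample and 1 to 14 in the other samples of that contrast. This call was lost without Tail-pNSC replicate 2, Brain-NSC replicate 1, or Wnt1Cre-mTmG brain NSC replicate 1 or 2. For *Postn* in lung the fitted difference was -5.31 with an adjusted p of 0.0142. It rests on 3 and 3 counts in Lung-pNSC against 0 and 0 in Brain-NSC and depends on the prior count, so it is no measure of size. This call was lost without Brain-NSC replicate 1 and not made in a fit of only the groups compared. Groups of 2 or 3 samples were not tested for outliers.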

How the results depend on the processing

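In 7 of the 12 direct comparisons (each pNSC group against its tissue, Tail against Lung and the 3 that hold DRG NCSCs) the number of the 10 genes called was the same without any 1 replicate; it also stayed at 4 for Wnt1Cre-mTmG DRG pNSCs against brain NSCs. Against brain NSCs, the count went from 2 to 1 in Tail-pNSC and from 3 to 1 in Lung-pNSC when only the groups compared were fitted. Leaving out 1 replicate gave 2 to 3 genes in Tail-pNSC, 1 (without Brain-NSC replicate 1) to 3 in Lung-pNSC, 2 in each case in Sox2-GFP lung pNSCs, where *Ogn* lost its call, and 6 to 8 in Wnt1Cre-mTmG Tail pNSCs. With no limit on the fold change the counts were 4, 5 and 6 for Tail-pNSC, Lung-pNSC and Sox2-GFP lung pNSCs. No share of all genes is given for that rule, here or below, so counts under it cannot be set against the shares above. The difference between tail experiments was called for 1 to 3 genes when 1 replicate was left out, and for 1 without Tail-pNSC replicate 2, Brain-NSC replicate 1 or Wnt1Cre-mTmG brain NSC replicate 1 or 2. That between lung experiments was called for 0 to 2 genes when 1 replicate was left out (0 without Brain-NSC replicate 1, 2 without Lung-pNSC replicate 1 or Sox2-GFP lung pNSC replicate 3), for 2 at a mean count of at least 100, for 0 with only the groups compared and for 3 with no limit on the fold change. The causes were not tested.

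Log2 values that turned were of low counts. Leaving out 1 replicate, *Thy1* ran from -4.73 to 0.071 in Tail-pNSC and from -0.84 to 1.87 in Lung-pNSC against Brain-NSC (-0.50 without Brain-NSC replicate 1), and *Lum* from -0.48 to 0.29 in Wnt1Cre-mTmG DRG pNSCs (0.085 without replicate 3). In the difference between tail experiments *Lum* ran from -0.59 to 0.19, with 0.26 by DESeq2 and 0.12 without Tail-pNSC replicate 2, and *Thy1* from -0.71 to 4.02, with -0.070 without Tail-pNSC replicate 2. In that between lung experiments *Ogn* ran from -0.13 to 1.04, with -0.12 without Lung-pNSC replicate 1. Replicates with the same number did not deviate together (correlations of 0.0093, 0.12 and 0.13 at most in any comparison), so the replicate block is given here only: it called 2 genes in Sox2-GFP lung pNSCs against brain NSCs, 6 in Wnt1Cre-mTmG Tail pNSCs and 3 in the tail difference, and elsewhere as many as without it. Scaling by library totals alone moved the median of all genes by 0.19 in Tail-pNSC against Tail and by -0.14 in Tail against Lung. Leaving out DRG NCSC replicate 3 from the fits of both Wnt1Cre-mTmG pNSC groups against brain NSCs, chosen after the data were seen, left 7 and 4 calls.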
